A study of Mus musculus with 2 samples.

Results

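The 9 genes described here encode enzymes, and 1 activating protein (Alox5ap), of the synthesis of eicosanoids, the signalling lipids derived from arachidonic acid: Ptgs1, Ptgs2, Ptges, Ptgis, Hpgds, Alox5, Alox5ap, Ltc4s and Lta4h. They were taken by name, and all 9 were found among the 32287 features of a single-cell RNA-seq library. Their unique molecular identifiers (UMIs, each standing for 1 captured transcript) were read across myeloid subsets and stromal classes, which were gated by marker UMIs among barcodes with at least 5000 UMIs.

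The library came from tibialis anterior and gastrocnemius muscle of 2-month-old male S100GFPtg mice, labelled WT, 7 days after crush of the sciatic nerve, and held live cells sorted as GFP+. The transgene drives GFP from the S100B promoter to mark Schwann cells, and every cell described here carried the injury and the transgene. A companion GFP- library shared 372 barcode sequences with this library and its counts were not analysed here, and whether the cells came from 1 mouse or from pooled males could not be settled from the sources. There was thus 1 library with no replicate, no uninjured group and no test, and the 95% intervals below cover counting error only.

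The library held 170648616 UMIs over 36400 barcodes, with a median of 2130. Of 8894 barcodes with at least 5000 UMIs, 8701 had more than 200 genes and a mitochondrial share under 10%, and 8164 of these passed exactly 1 lineage gate, with a median of 11764 UMIs. Another 427 passed several lineage gates and were left out as possible doublets, and 110 passed none. The sort was named for Schwann cells, but the gated cells were 74.5% myeloid (6080 cells) and 15.8% stromal (1287 cells), and 71 cells, or 0.870%, passed the Schwann gate. The remaining lineages were tenocytes (423 cells), satellite cells and myoblasts (219), smooth muscle cells and pericytes (45) and endothelial cells (39). All 10 of the myeloid markers and all 7 of the tenocyte markers were highest in their own lineage, as were 6 of the 9 stromal markers, whose summed level was 47326 CPM (UMIs per 1000000 UMIs of a class) in tenocytes and 37434 in stromal cells. Of the subset markers, 4 of 5 were highest in their own class for resident-like macrophages, 5 of 5 for lipid-associated macrophages, 3 of 4 for monocytes, 4 of 4 for adventitial fibroblasts and 3 of 3 for Smoc2 Cxcl14 Hsd11b1 fibroblasts. The counts were 3 of 4 for Cd209a Flt3 dendritic cells and 2 of 3 for Gdf10 Inmt fibroblasts. The gates were set on these same lineage and subset markers, so the counts were largely fixed in advance and do not test the class names. The median mitochondrial share lay at 4.08% in resident-like macrophages, 3.10% in monocytes, 2.03% in adventitial fibroblasts and 4.23% in tenocytes.

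Cyclooxygenases convert arachidonic acid to prostaglandin H, and terminal synthases then turn it into prostaglandin E (Ptges), prostacyclin (Ptgis) or prostaglandin D (Hpgds). On the other branch, arachidonate 5-lipoxygenase (Alox5) with its activating protein (Alox5ap) makes leukotriene A, which Lta4h hydrolyses to leukotriene B and Ltc4s conjugates to glutathione to give the cysteinyl leukotrienes. In injured muscle these lipids are known for effects on vessel tone, pain, leukocyte recruitment and satellite cell proliferation, and a cell makes a given product only if it holds, or receives intermediates from, each enzyme of that route.

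The promoters of 4 members are shown because they belong to the patterns described below: Hpgds, Ltc4s and Alox5 were all highest in the same macrophage subset, and Ptgs2 was high in classes of both lineages. Each window runs from 250 bases before the RefSeq transcript start to 30 bases after it on build GRCm38.p6, and 7 of the 9 members had an entry. Capitals mark matches, on either strand, to GAGGAA (the core bound by PU.1-type ETS factors, TTCCTC on the other strand), GGGCGG (a GC box, CCGCCC on the other strand), TGACGT (a cAMP response element core, ACGTCA on the other strand) or CACGTG (an E-box). Hpgds lies at chr6:65144701-65144980 (minus strand), Ltc4s at chr11:50238503-50238782 (minus strand), Alox5 at chr6:116461149-116461428 (minus strand) and Ptgs2 at chr1:150099781-150100060 (plus strand).
Hpgds: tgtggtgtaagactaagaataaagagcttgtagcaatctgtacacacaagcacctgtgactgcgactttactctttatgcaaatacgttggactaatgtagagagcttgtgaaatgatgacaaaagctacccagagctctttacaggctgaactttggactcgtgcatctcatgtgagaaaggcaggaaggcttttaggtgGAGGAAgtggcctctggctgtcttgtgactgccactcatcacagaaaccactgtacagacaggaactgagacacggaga
Ltc4s: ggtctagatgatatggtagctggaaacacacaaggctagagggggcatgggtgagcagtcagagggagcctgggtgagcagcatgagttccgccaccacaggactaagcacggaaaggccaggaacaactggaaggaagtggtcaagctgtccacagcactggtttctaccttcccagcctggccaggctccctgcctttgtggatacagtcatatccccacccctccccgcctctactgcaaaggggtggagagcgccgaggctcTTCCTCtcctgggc
Alox5: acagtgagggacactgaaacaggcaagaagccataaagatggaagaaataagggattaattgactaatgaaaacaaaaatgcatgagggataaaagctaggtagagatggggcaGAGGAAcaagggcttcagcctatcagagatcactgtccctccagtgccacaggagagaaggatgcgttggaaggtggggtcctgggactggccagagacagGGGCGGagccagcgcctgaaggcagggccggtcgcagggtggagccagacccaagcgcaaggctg
Ptgs2: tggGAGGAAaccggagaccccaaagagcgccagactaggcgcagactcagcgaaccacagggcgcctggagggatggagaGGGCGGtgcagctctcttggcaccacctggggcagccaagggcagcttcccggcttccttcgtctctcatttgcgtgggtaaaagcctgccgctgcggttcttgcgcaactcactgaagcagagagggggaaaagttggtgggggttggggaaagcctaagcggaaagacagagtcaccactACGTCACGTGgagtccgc

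GAGGAA occurred in all 7 member windows and in 26.0% of the 32851 RefSeq mouse promoter windows of this length. Its position, counted to the leftmost base relative to the transcript start, was -49 in Hpgds, 17 in Ltc4s, -136 in Alox5, -247 in Ptgs2, -24 in Ptgs1, -149 in Ptges and -126 in Lta4h. The motif was thus present in windows of genes of both kinds, those highest in macrophages and those highest in fibroblasts. GGGCGG, found in 34.7% of all windows, occurred in Alox5, Ptgs2 and Ptges. TGACGT (7.26% of all windows) and CACGTG (6.79%) occurred, overlapping each other, in the Ptgs2 window alone among the 7. Neither TGANTCA (an AP-1 motif, in 7.46% of all windows) nor TATAAA (the core-promoter element bound by TBP, TTTATA on the other strand, in 13.1%) matched any of the 7. A match describes letters in the window and does not show that a factor bound there.

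Alox5, Alox5ap and Ltc4s of the 5-lipoxygenase branch were higher in myeloid than in stromal cells and were unevenly divided among the myeloid subsets. Alox5ap, the activating protein that presents arachidonic acid to the lipoxygenase, was at 487.8 CPM in myeloid cells and 9.63 in stromal cells. Alox5 itself was at 37.8 CPM in myeloid and 0.925 in stromal cells. Ltc4s, the leukotriene C synthase, was at 160.8 and 4.91 CPM in the same order. The myeloid level was therefore 50.6-fold higher for Alox5ap (log2 5.66, interval 5.46 to 5.87), 40.8-fold for Alox5 (log2 5.35, 4.71 to 6.09) and 32.7-fold for Ltc4s (log2 5.03, 4.75 to 5.33). Lta4h, which opens the leukotriene B route, did not follow them, with 23.8 CPM in myeloid and 27.0 in stromal cells (log2 -0.18, -0.32 to -0.04), and its sign turned when classes were scaled by median-of-ratios size factors (log2 0.06). The summed myeloid marker level was 128.8 CPM in stromal cells against 8087 in myeloid cells, and the summed stromal marker level was 96.5 CPM in myeloid cells. These ratios moved with such barcodes by more than their counting intervals. Their lowest values, with barcodes of several lineage gates kept, were log2 3.83 for Alox5ap, 3.66 for Alox5 and 3.75 for Ltc4s. The highest, with the barcodes of each lineage that held most markers of the other left out, were 7.62, 6.73 and 6.46.

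Among the myeloid classes of at least 50 cells, Alox5 and Ltc4s were highest in the Lyve1 Folr2 resident-like macrophages, a subset named for markers of long-lived tissue macrophages (2795 cells). There Alox5 was at 62.0 CPM (59.5 to 64.7), followed by 30.0 in MHC class II high C1q macrophages (953 cells), 13.9 in Cd209a Flt3 dendritic cells (475 cells), 10.5 in Ly6c2 Chil3 monocytes (417 cells) and 7.81 in Gpnmb Fabp5 lipid-associated macrophages (648 cells). The Xcr1 Clec9a dendritic cells (122 cells) had the lowest Alox5 of these classes, at 0.427 CPM, which rests on 1 UMI, and their log2 ratio to the Cd209a Flt3 dendritic cells ran from -5.81 to -2.03 over the processing alternatives. The Schwann cells (71 cells) were at 9.31 CPM from 6 UMIs (3.42 to 20.3), not separated from monocytes or lipid-associated macrophages. The 8 neutrophils, too few for the ranking, had a value of 88.4 CPM from 9 UMIs (40.4 to 167.9), an interval that includes the level of the resident-like macrophages. Ltc4s spread further still, at 305.4 CPM (299.6 to 311.3) in resident-like macrophages, 67.4 in MHC class II high C1q macrophages, 28.3 in lipid-associated macrophages and between 5.55 and 9.62 in monocytes and both dendritic classes. Of all Ltc4s UMIs in gated cells, 83.9% lay in the resident-like macrophages, as did 72.5% of those of Alox5, against 34.2% of the gated cells.

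Alox5ap had another order. Its highest level was in monocytes, at 775.7 CPM (750.4 to 801.6), followed by 697.5 in Xcr1 Clec9a dendritic cells and 645.9 in Cd209a Flt3 dendritic cells. Resident-like, lipid-associated and MHC class II high C1q macrophages lay together at 457.5, 424.1 and 417.1 CPM. All 6 of these classes were far above the 5 fibroblast classes, which lay between 5.24 and 14.1 CPM, the tenocytes at 14.0 and the satellite cells and myoblasts at 6.31. The Ccr7 Fscn1 mature dendritic cells, of which there were 19, were the myeloid exception at 68.7 CPM. Lta4h varied least of the 9 genes, from 12.0 CPM in Xcr1 Clec9a dendritic cells to 36.7 in Apod Tenm2 Col28a1 fibroblasts over the 14 classes of at least 50 cells, and the interval of the ratio between each class and the next in this order included 0. Classes further apart could separate. Resident-like macrophages had more Lta4h than monocytes (log2 0.64, 0.32 to 0.98), where the median gene was itself 0.32 higher.

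**Figure D1:**
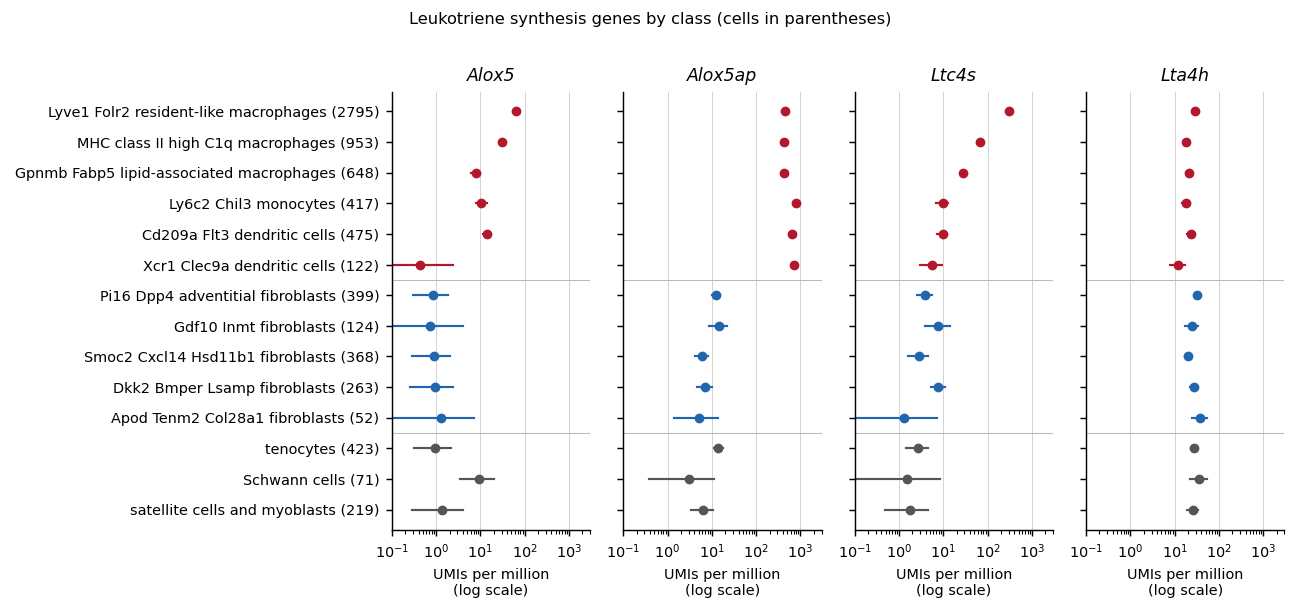
Level of the 4 genes of the 5-lipoxygenase branch in each named class of at least 50 cells, in CPM on a log axis, with exact Poisson 95% intervals of counting error (myeloid classes red, fibroblasts blue, others grey, open triangles for classes at 0 with a line up to the limit of 3 counts). Among these 14 classes of at least 50 cells, Alox5 and Ltc4s peak in the resident-like macrophages (62.0 and 305.4) and Alox5ap in monocytes (775.7), and Lta4h lies between 12.0 and 36.7.

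The prostanoid genes were divided between the lineages, and Hpgds was the myeloid one. Hpgds, the haematopoietic prostaglandin D synthase, was at 149.9 CPM in myeloid and 3.75 in stromal cells, 40.0-fold apart (log2 5.32, 5.00 to 5.67), and the log2 ratio ran from 3.80 to 6.92 under the same 2 settings. Its order among subsets resembled that of Ltc4s, with 232.9 CPM (227.8 to 238.0) in resident-like macrophages, 111.0 in MHC class II high C1q macrophages and 93.1 in lipid-associated macrophages. Monocytes and both dendritic classes lay between 16.4 and 17.4 CPM. Mast cells are a known source of prostaglandin D and of cysteinyl leukotrienes, and 1 barcode passed a mast cell gate. The 6 mast cell markers summed to 1.22 CPM in resident-like macrophages, with Ms4a2 at 0, and to 1.21 in MHC class II high C1q macrophages. In the 643 myeloid cells that passed no subset gate they summed to 104.6 CPM with all 6 detected, and there Hpgds was at 148.3 and Ltc4s at 98.5 CPM. The sum of 98.2 CPM in Xcr1 Clec9a dendritic cells came from Kit alone. The part of mast cell RNA in the Hpgds and Ltc4s values of these 643 cells was not tested.

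Ptgis and Ptges lay on the other side. Ptgis, the prostacyclin synthase, was at 0.388 CPM in myeloid and 63.8 in stromal cells (log2 -7.36, -7.93 to -6.84, and between -8.14 and -6.35 over the processing alternatives), and its highest level was in neither of them but in tenocytes, at 555.3 CPM (535.4 to 575.8). Among fibroblasts it was at 122.6 CPM in the Pi16 Dpp4 adventitial class (399 cells), 57.1 in Dkk2 Bmper Lsamp fibroblasts (263 cells), and between 14.4 and 19.1 in the Gdf10 Inmt (124 cells), Smoc2 Cxcl14 Hsd11b1 (368 cells) and Apod Tenm2 Col28a1 (52 cells) classes. The 45 smooth muscle cells and pericytes, too few for the ranking, were at 127.5 CPM from 59 UMIs (97.02 to 164.4). Tenocytes held 67.5% of the gated Ptgis UMIs and adventitial fibroblasts 20.5%. No Ptgis UMI was found in Xcr1 Clec9a dendritic cells or in satellite cells and myoblasts, where a count of 0 allows up to 1.28 and 1.35 CPM. Ptges, an inducible prostaglandin E synthase, was at 3.39 CPM in myeloid and 43.8 in stromal cells (log2 -3.69, -3.90 to -3.49). Its 5 fibroblast classes lay between 31.1 and 50.6 CPM, with no neighbours in that order separated beyond their counting intervals, while tenocytes were at 13.3 and the myeloid classes at 7.00 or below. Further apart in that order, adventitial fibroblasts lay below the Smoc2 Cxcl14 Hsd11b1 class (log2 -0.41, -0.65 to -0.17).

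Both cyclooxygenases crossed the lineage border. Ptgs1, usually called the constitutive enzyme, was at 21.7 CPM in myeloid and 11.7 in stromal cells (log2 0.89, 0.70 to 1.09). It was at 29.4 CPM in both the MHC class II high C1q and the resident-like macrophages, whose ratio could not be told from 1 (log2 -0.00, -0.19 to 0.19), and at 20.6 in adventitial fibroblasts. The other fibroblast classes lay between 3.93 and 8.49 CPM and tenocytes at 0.759. The 39 endothelial cells, too few for the ranking, had a higher value of 58.3 CPM (36.1 to 89.1).

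Ptgs2, the inducible cyclooxygenase, ranged over the classes from 0 to 1224 CPM. Adventitial fibroblasts were at 1224 CPM (1198 to 1249), monocytes at 739.4 and Gdf10 Inmt fibroblasts at 710.7, the last 2 not separated. Lipid-associated macrophages (502.6), Dkk2 Bmper Lsamp fibroblasts (491.8) and Smoc2 Cxcl14 Hsd11b1 fibroblasts (487.1) formed a group without separation between neighbours, and Apod Tenm2 Col28a1 fibroblasts (354.0), Cd209a Flt3 dendritic cells (224.2) and MHC class II high C1q macrophages (156.8) followed. Tenocytes were at 75.4 CPM. The resident-like macrophages were at 27.6 CPM (25.8 to 29.4), Xcr1 Clec9a dendritic cells at 5.13, and satellite cells and myoblasts at 0, which allows up to 1.35 CPM. The stromal level as a whole was 752.2 CPM against 191.3 in myeloid cells (log2 -1.98, -2.01 to -1.94), a fold of 3.93, and the gated Ptgs2 UMIs were divided almost evenly, with 50.4% in stromal and 48.2% in myeloid cells.

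**Figure D2:**
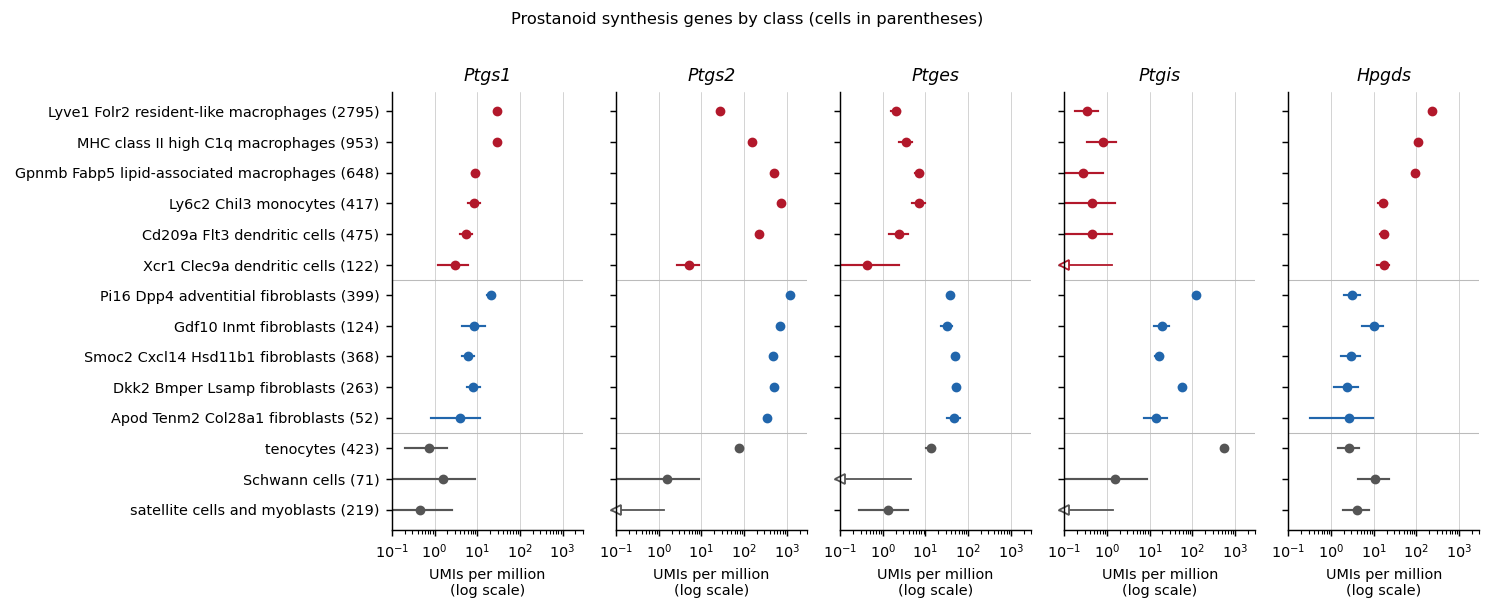
Level of the 5 prostanoid genes in each named class of at least 50 cells, in CPM on a log axis, with exact Poisson 95% intervals of counting error (myeloid classes red, fibroblasts blue, others grey, open triangles for classes at 0 with a line up to the limit of 3 counts). Hpgds peaks in resident-like macrophages (232.9), Ptgis in tenocytes (555.3) and Ptgs2 in adventitial fibroblasts (1224), and Ptgs2 in the resident-like macrophages (27.6) lies below that in monocytes (739.4).

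Set against a 4-fold difference, 4 of the 9 members were higher in myeloid cells (Hpgds, Alox5, Alox5ap and Ltc4s), where 11.9% of the 15610 genes with at least 50 UMIs over both lineages were. Another 2 of the 9, Ptges and Ptgis, were higher in stromal cells by that measure, where 16.0% of all genes were, and Ptgs2 lay just inside the limit. The median gene differed by -0.08 on the log2 scale. Among the 14 named classes of at least 50 cells, 5 of the 9 genes had their highest level in a myeloid class (Ptgs1, Hpgds, Alox5, Alox5ap and Ltc4s), 3 in a fibroblast class (Ptgs2, Ptges and Lta4h) and Ptgis in tenocytes. The matching shares over all genes were not computed, so these counts only describe where the levels of the members lay. For Ptgs1 the endothelial cells, too few for the ranking, had a higher value. The place of Lta4h was not stable, since its highest class was the Schwann cells in 7 of 12 processing alternatives, the endothelial cells in 1, the satellite cells and myoblasts in 1 and the Apod Tenm2 Col28a1 fibroblasts in 3. Those 3 include a fold of 2 and no minimum of gene UMIs, which cannot change the highest class. Set against all other gated cells, the highest class was 40.1-fold higher for Ptgis, 10.9-fold for Ltc4s, 5.58-fold for Ptgs2, 5.54-fold for Alox5, 5.08-fold for Ptges, 4.60-fold for Hpgds and 2.30-fold for Alox5ap. The log2 ratio for Ltc4s, 3.45, was 2.71 with gate minima doubled. For Lta4h the interval of this log2 ratio included 0 (0.58, -0.02 to 1.11).

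The same comparison over 48 other genes of eicosanoid metabolism and response, found out of 49 listed, placed 11 on the myeloid side and 9 on the stromal side of a 4-fold difference, among 38 with at least 50 UMIs. Of all genes, 11.9% were past this limit on the myeloid side and 16.0% on the stromal side. Several of the myeloid genes act beside the members named above. Tbxas1, the thromboxane synthase, was at 122.3 CPM in myeloid and 5.50 in stromal cells, and Hpgd, which inactivates prostaglandins, at 131.0 and 21.8. Pla2g7, the platelet-activating factor hydrolase, was at 214.8 and 4.09 CPM. The leukotriene receptors Cysltr1 (53.9 against 1.02 CPM) and Ltb4r1 (25.1 against 1.56) and Cyp4f18, which oxidises leukotriene B (49.2 against 0.389), lay on the same side as Alox5 and Ltc4s. Dpep2, a dipeptidase that trims cysteinyl leukotrienes, was also myeloid, with 13.8 CPM and 3 UMIs in stromal cells (log2 6.56, 5.01 to 8.84). The other 4 were Pla2g2d (9.64 against 0.925), Prxl2b (73.0 against 14.6), Ptger2 (5.85 against 0.584) and Fpr2 (8.27 against 0.876).

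On the stromal side, Dpep1, a related dipeptidase, was at 284.3 CPM in stromal and 0.699 in myeloid cells, and Ggt5, the transferase acting before it on leukotriene C, at 58.2 and 9.90. Transcripts of these 2 enzymes, which act after Ltc4s, were thus higher in the pooled lineage with little Ltc4s. Dpep2 lay on the myeloid side. Within the myeloid cells, Ggt5 was more than 4-fold higher in resident-like macrophages, the class with the most Ltc4s, than in monocytes. Receptors for prostanoids followed, with Ptgfr at 19.4 CPM in stromal and 0.0777 in myeloid cells, Ptgir, the prostacyclin receptor, at 11.6 and 2.71, and Ptger3 at 5.74 and 0.712. The prostaglandin transporter Slco2a1 was at 29.5 and 0.906 CPM. The remaining 3 were Cyp2j6 (19.5 against 1.93), Ephx2 (4.19 against 0.168) and Pla2g2e (2.38 against 0.168). Pla2g4a, the cytosolic phospholipase that releases arachidonic acid, was within 4-fold, at 58.5 CPM in stromal and 34.3 in myeloid cells.

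**Figure D3:**
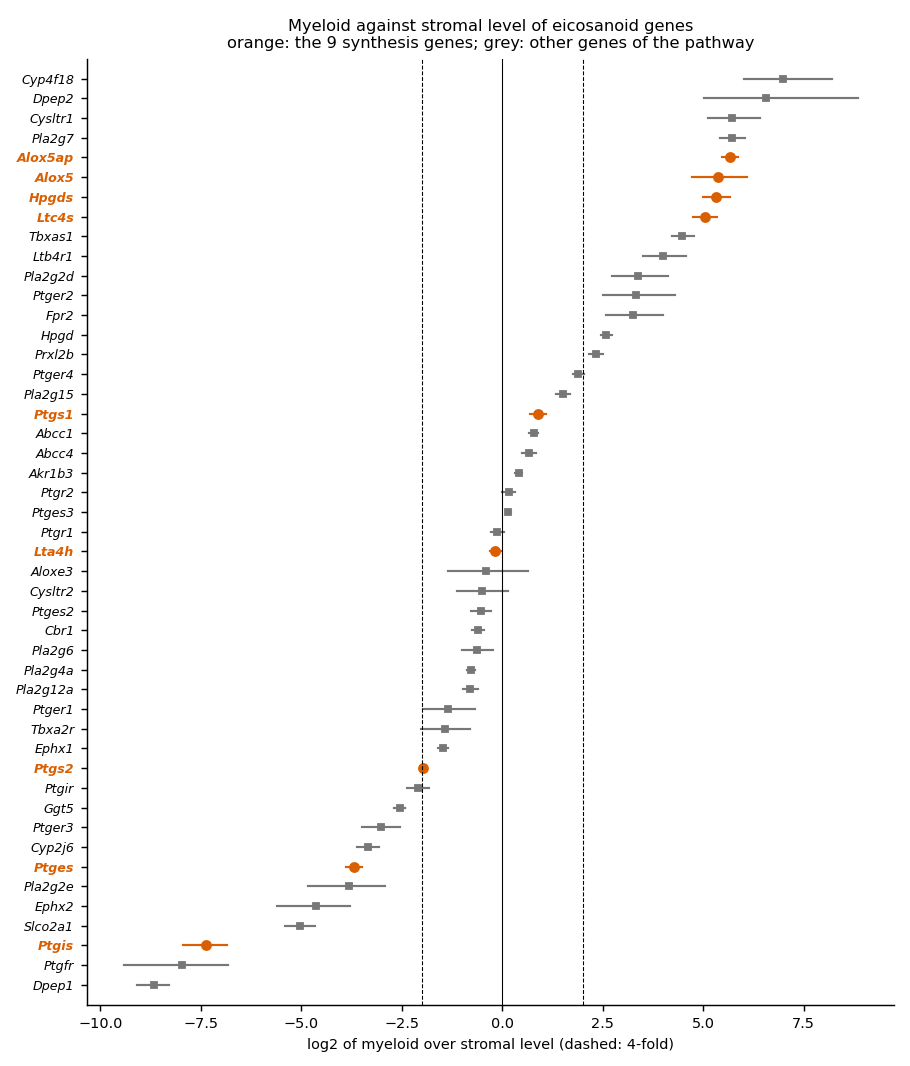
Log2 ratio of the myeloid to the stromal level for the 9 members (orange) and for other pathway genes with at least 50 UMIs (grey), with exact 95% intervals of counting error and dashed lines at a 4-fold difference. Alox5ap (5.66), Alox5 (5.35), Hpgds (5.32) and Ltc4s (5.03) lie past the line on the myeloid side and Ptgis (-7.36) and Ptges (-3.69) on the stromal side.

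Between resident-like macrophages and monocytes the members moved in opposite directions. Ltc4s was 31.8-fold higher in the resident-like cells (log2 4.99), Hpgds 14.2-fold (3.83) and Alox5 5.92-fold (2.56). Ptgs2 was lower there (log2 -4.75), as were Ptges (-1.81) and Alox5ap (-0.76), while Ptgs1 was higher (1.78). The median gene was itself 0.32 higher on the log2 scale in resident-like macrophages, and relative to it the values were 4.67 for Ltc4s, 3.51 for Hpgds, 2.25 for Alox5, 1.47 for Ptgs1, -1.08 for Alox5ap, -2.12 for Ptges and -5.06 for Ptgs2. Past 4-fold were 3 of 8 members on the resident-like side, where 11.0% of all genes were, and 1 of 8 on the monocyte side, where 2.77% were. Of 28 other pathway genes, 5 were past 4-fold in resident-like macrophages (Pla2g2d, Pla2g6, Ggt5, Cyp2j6 and Ephx1) and 3 in monocytes (Ptger2, Ltb4r1 and Fpr2). Ltb4r1, the leukotriene B receptor, was at 109.3 CPM in monocytes and 2.21 in resident-like macrophages, a direction opposite to that of Alox5. With the barcodes of each lineage that held most markers of the other left out, the log2 ratio of Ltc4s was 5.74, of Ptgs1 2.96 and of Ptges -2.44, and with gate minima doubled that of Hpgds was 4.50.

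Compared with lipid-associated macrophages, the resident-like cells had Ltc4s higher by log2 3.43, Alox5 by 2.99, Ptgs1 by 1.70 and Hpgds by 1.32, and Ptgs2 was lower (log2 -4.19), where the median gene was again 0.32 higher. Alox5ap hardly differed between them (0.11), and its sign turned with median-of-ratios size factors (-0.22). The ratio of Ltc4s reached log2 4.10 with gate minima doubled, and that of Ptgs1 2.29 with the barcodes holding most markers of the other lineage left out. Compared with MHC class II high C1q macrophages, Ltc4s was higher by 2.18, Hpgds by 1.07 and Alox5 by 1.05, and Ptgs2 was lower (log2 -2.51). The lipid-associated macrophages had more Hpgds than monocytes (log2 2.51) and less Alox5ap (log2 -0.87), with Ptgs2 nearer (log2 -0.56). Among dendritic cells, the Xcr1 Clec9a class lacked what the Cd209a Flt3 class had of Ptgs2 (log2 -5.45, -6.41 to -4.64, and between -6.24 and -4.79 over the processing alternatives).

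In the stroma, adventitial fibroblasts, which surround vessels and lie in fascia, stood out against the Smoc2 Cxcl14 Hsd11b1 class. Ptgis was 7.40-fold higher in them (log2 2.89), Ptgs1 higher by log2 1.74, Ptgs2 2.51-fold higher (log2 1.33) and Lta4h higher by 0.60, and Ptges was lower (log2 -0.41). With barcodes of several subset gates left out, the log2 ratio of Ptgis was 2.27. Past 4-fold on the adventitial side was 1 of 6 members, Ptgis, where 2.20% of all genes were, and on the other side 0 of 6, where 2.64% were. Of 24 pathway genes none was past 4-fold in adventitial fibroblasts and 4 were in the Smoc2 Cxcl14 Hsd11b1 class, namely Ptgir (log2 -3.65), Ptgfr (-3.39), Ptger4 (-2.53) and Ptger3 (-2.05). These 4 prostanoid receptors were the receptors of the list with at least 50 UMIs over both classes, and the other receptors had too few to be counted. The class with more prostacyclin synthase was thus the class with the lower level of the prostacyclin receptor.

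Tenocytes, the collagen-producing cells of tendon, held more Ptgis than the stromal cells and less of either cyclooxygenase. Ptgis was 8.71-fold higher than in stromal cells (log2 3.12), whereas Ptgs1 (log2 -3.94), Ptgs2 (-3.32) and Ptges (-1.72) were lower, and Lta4h had a log2 ratio of 0.01. The ratio of Ptgs1 ran from log2 -4.58 to -2.66 over the processing alternatives. Past 4-fold were 1 of 8 members in tenocytes, where 3.12% of all genes were, and 2 of 8 in stromal cells, where 5.50% were. Of 28 other pathway genes, Pla2g5 (38.5 CPM against 1.31) and Pla2g7 (log2 2.88) were past 4-fold in tenocytes, and Ephx2, Dpep1, Ggt5 and Ptgir in stromal cells. The summed tenocyte marker level was 20834 CPM in tenocytes, 63.7 in adventitial fibroblasts and 1031 in the Smoc2 Cxcl14 Hsd11b1 class, and its part in the fibroblast Ptgis values was not tested.

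Shares of cells were compared after thinning every cell to 5000 UMIs. Ltc4s was detected in 66.0% of resident-like macrophages (1844 of 2795 cells), Hpgds in 59.8%, Alox5 in 25.7% and Alox5ap in 87.1%. In monocytes the shares were 2.16% for Ltc4s, 4.56% for Hpgds and 95.2% for Alox5ap, so detection followed the levels. Ptgs2 was detected in 78.4% of adventitial fibroblasts (313 of 399 cells), 50.4% of monocytes, 48.6% of Smoc2 Cxcl14 Hsd11b1 fibroblasts, 46.6% of lipid-associated macrophages and 6.12% of resident-like macrophages. Ptgis was detected in 76.1% of tenocytes (322 of 423 cells) and 40.9% of adventitial fibroblasts. In satellite cells and myoblasts, read as a comparison class of another lineage, the shares were 2.74% for Alox5ap, 1.83% for Hpgds, 1.37% for Alox5 and 0.457% for Ltc4s, and 0 of 219 cells had a Ptgs2 UMI, which allows up to 1.37% of cells with a UMI at this depth and does not limit the share that expresses the gene. Lta4h stood at 9.13% in the same cells. Before thinning, the median depth was 11474 UMIs in resident-like macrophages, 10490 in monocytes, 18195 in adventitial fibroblasts, 11277 in tenocytes and 9267 in satellite cells and myoblasts, and the unthinned shares were 84.0% for Ltc4s, 79.7% for Hpgds and 47.0% for Alox5 in resident-like macrophages, 89.5% for Ptgs2 in adventitial fibroblasts and 87.0% for Ptgis in tenocytes.

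Routes were then read within single cells, as the share of thinned cells with a UMI of every member read for a route, where either cyclooxygenase was enough. Alox5, Alox5ap and Ltc4s together, the cysteinyl leukotriene route, were detected in 15.7% of resident-like macrophages (14.4 to 17.1), 3.46% of MHC class II high C1q macrophages, 1.08% of lipid-associated macrophages and 0.240% of monocytes. The product of the 3 single shares in resident-like macrophages was 14.8%, inside the interval of the joint share, so in this class the 3 transcripts were found together about as often as their separate shares give. A cyclooxygenase with Hpgds was detected in 15.9% of lipid-associated macrophages, 11.1% of resident-like macrophages and 10.7% of MHC class II high C1q macrophages. In the lipid-associated macrophages this joint share exceeded that of the resident-like cells, although Hpgds alone was detected in 33.9% of them.

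A cyclooxygenase with Ptges, 1 of the prostaglandin E synthases, was detected in 14.3% of adventitial fibroblasts, 10.6% of Smoc2 Cxcl14 Hsd11b1 fibroblasts, 9.68% of Gdf10 Inmt fibroblasts and 8.37% of Dkk2 Bmper Lsamp fibroblasts, and in 1 of 52 Apod Tenm2 Col28a1 fibroblasts (1.92%, 0.0487 to 10.3), against 1.68% of monocytes and 0.946% of tenocytes. The other synthases Ptges2 and Ptges3 were not part of this joint share. For prostacyclin, a cyclooxygenase with Ptgis was detected in 31.1% of adventitial fibroblasts (26.6 to 35.9), 12.5% of tenocytes, 10.6% of Dkk2 Bmper Lsamp fibroblasts and 0 of 2795 resident-like macrophages, which allows up to 0.107% of cells with both UMIs at this depth. Without thinning, 6 of the 2795 had both (0.215%). Tenocytes had the highest Ptgis level, yet the joint share was higher in adventitial fibroblasts. The products of the single shares, 32.8% in adventitial fibroblasts and 13.1% in tenocytes, again lay near the joint shares. A joint share under-reads cells that hold all transcripts, since a low gene such as Alox5 is often missed at 5000 UMIs.

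**Figure D4:**
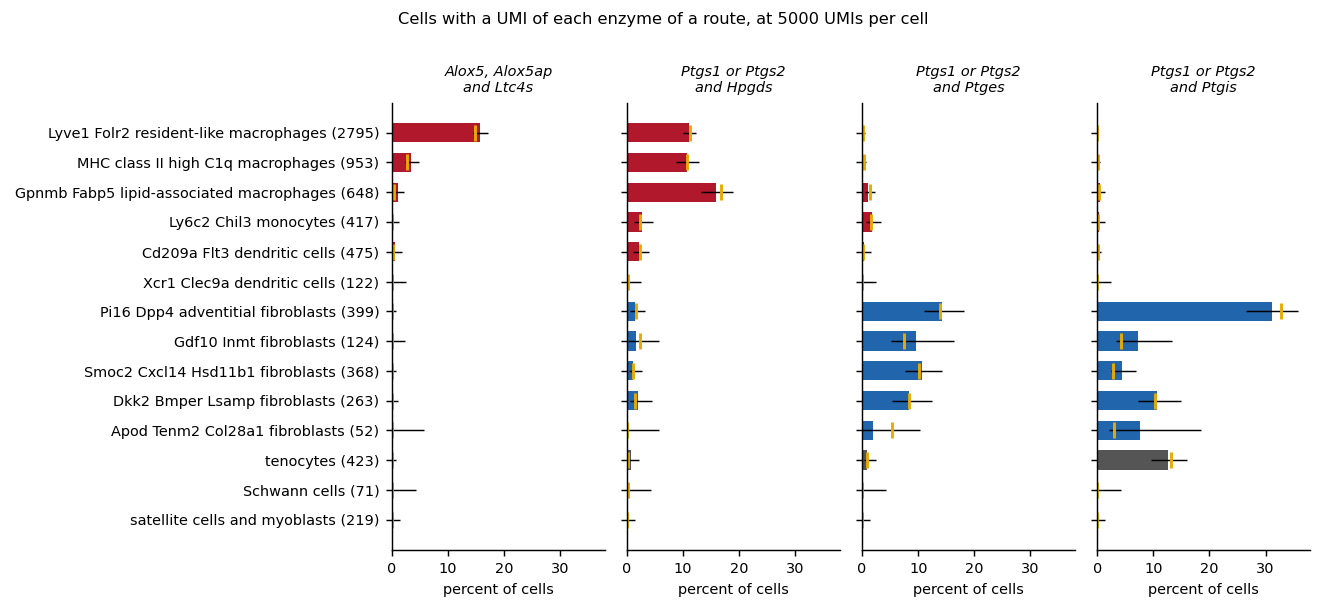
Percent of cells, thinned to 5000 UMIs, with at least 1 UMI of every member read for a route (either cyclooxygenase was enough), by class, with exact binomial 95% intervals of counting error (for classes at 0, up to the share that a count of 0 allows) and the product of the single shares as a yellow tick. Myeloid classes are red, fibroblasts blue and others grey. The cysteinyl leukotriene route is highest in resident-like macrophages (15.7%) and a cyclooxygenase with Ptgis in adventitial fibroblasts (31.1%).

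Ptgs2 was unevenly spread over cells of a class. At 5000 UMIs per cell, adventitial fibroblasts had a median of 4 Ptgs2 UMIs, with 16 at the 90th percentile and 43 in the highest cell, and monocytes a median of 1, with 12 at the 90th percentile and 39 in the highest cell. In lipid-associated macrophages the median was 0 and the 90th percentile 8. Among all myeloid cells, the 608 cells with most Ptgs2 held 87.7% of its UMIs. The 10% of cells with most UMIs of a gene held 53.6% of Ptgs2 UMIs in monocytes and 37.3% in adventitial fibroblasts. The same measure was 36.0% for Ltc4s in resident-like macrophages (median 1, 90th percentile 4), 29.8% for Ptgis in tenocytes (median 2, 90th percentile 6) and 24.2% for Alox5ap in monocytes (median 3, 90th percentile 8).

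Ptgs2 is an immediate early gene in many cells, and tissue dissociation is known to raise such genes, so 10 of them (Fos, Fosb, Jun, Junb, Egr1, Ier2, Ier3, Atf3, Dusp1 and Zfp36) were read beside it. Their summed level was 13123 CPM in Gdf10 Inmt fibroblasts, 13062 in resident-like macrophages, 12320 in tenocytes, 9118 in adventitial fibroblasts, 8186 in satellite cells and myoblasts and 6198 in monocytes. Resident-like macrophages thus had more immediate early UMIs than monocytes and less Ptgs2, and satellite cells and myoblasts had them with no Ptgs2. Within adventitial fibroblasts, Ptgs2 was at 1588 CPM in cells above the class median of this sum and 884.2 in the others, and within monocytes at 869.4 and 605.0. The other 4 fibroblast classes had the same direction, with 768.5 and 655.5 CPM in Gdf10 Inmt, 523.1 and 450.7 in Smoc2 Cxcl14 Hsd11b1 and 540.4 and 447.6 in Dkk2 Bmper Lsamp fibroblasts, and 640.5 and 56.1 in Apod Tenm2 Col28a1 fibroblasts, from 26 cells each. In that last class, 5 of the 52 cells held 74.3% of the Ptgs2 UMIs after thinning, so its pair rests on few cells. The intervals of the Gdf10 Inmt pair overlapped. The direction was the reverse in MHC class II high C1q macrophages (102.8 above the median and 206.7 in the others), resident-like macrophages (21.2 and 33.3) and tenocytes (60.5 and 89.4), and in lipid-associated macrophages (486.1 to 525.9 and 482.5 to 518.0) and Cd209a Flt3 dendritic cells (202.3 to 236.1 and 213.3 to 245.0) the intervals overlapped. The part of dissociation in the Ptgs2 levels was not tested.

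**Figure D5:**
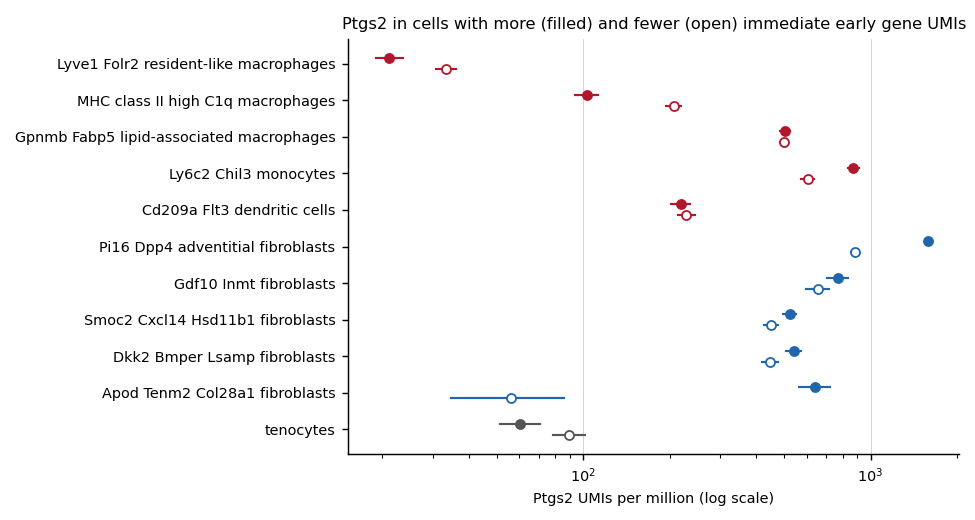
Ptgs2 level, in CPM on a log axis, in the cells of each class above (filled) and at or below (open) the class median of summed immediate early gene UMIs, with exact Poisson 95% intervals (myeloid classes red, fibroblasts blue, tenocytes grey). The filled point lies higher in adventitial fibroblasts (1588 against 884.2) and lower in MHC class II high C1q macrophages (102.8 against 206.7).

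Cycling myeloid cells, 147 cells with UMIs of genes such as Mki67 and Top2a, were compared with the other 5933. Ptgs2 was at 39.2 CPM in them and 197.6 in the others, Ltc4s at 71.0 and 164.6, and Hpgds at 71.6 and 153.2. Ptgs1 (log2 -0.53, -0.98 to -0.11) and Ptges, with 4 UMIs in cycling cells (log2 -1.42, -3.31 to -0.05), were also lower. The interval of the log2 ratio included 0 for Alox5ap (489.3 and 487.7 CPM), Alox5 (44.7 and 37.5), Lta4h (19.8 and 23.9) and Ptgis, which had 2 UMIs in cycling cells. The cycling share was 18.9% in Xcr1 Clec9a dendritic cells and 1.68% in resident-like macrophages, so subset and cycling were not separate in this comparison.

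The genes whose levels most resembled those of each member were ranked over the 14 classes of at least 50 cells, by the Pearson correlation of log2(CPM + 1) among 12996 genes. The classes share 1 library and differ in depth, and the values are a description. Alox5ap was closest to the leukocyte genes Dock2 (r = 0.99), Cd53 and Lcp1, Hpgds to Atp6v1h (0.98), Stab1 and Ap1b1, Ltc4s to Batf2 (0.96), Tnfrsf17 and Cbr2, and Alox5 to Cited2 (0.96), Gm30489 and Washc2. On the stromal side, Ptges was closest to C3 (0.97), Il6 (0.96) and Ly6a (0.95), Ptgis to Pitx1 (0.96) and Pamr1, and Ptgs2 to Pygl (0.93), Slc36a4 and Fn1. Ptgs1 was closest to Ddx60 (0.91), Oasl2 and Epb41l2, and Lta4h to Zfyve1 (0.93), Papss1 and Atpaf1. Among the members themselves, Hpgds and Ltc4s were most alike (0.90), followed by Hpgds and Alox5 (0.84), Ptgs2 and Ptges (0.79), Alox5 and Ltc4s (0.78), Hpgds and Alox5ap (0.77), Ptgs1 and Ltc4s (0.75), and Ptges and Ptgis (0.73).

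Barcodes left out for depth gave values of the same order for the members with many UMIs. In the 25740 barcodes under 5000 UMIs, taken without gates, Ptgs2 was at 319.8 CPM against 284.3 in the deeper barcodes, and Ltc4s at 93.3 against 113.7.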

How the data were processed

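Muscle cells of 1 GFP+ library were profiled by 10x Genomics 3' single-cell RNA-seq. The authors deposited raw UMI counts per gene and barcode, as whole numbers with no normalization. The submitters' processing notes name Cell Ranger 7.1.0, Seurat 4.30 and build mm10, whereas the file header names version 8.0.1, and the study's ambient RNA correction is not in these counts. Analyses used Python 3.11.15 with numpy 2.4.6, scipy 1.17.1 and pandas 2.3.3.

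Barcodes with at least 5000 UMIs, more than 200 genes and under 10% mitochondrial UMIs were gated by summed marker UMIs as a percent of all UMIs, with 3 or more markers detected for a lineage and 2 or more for a subset. Class names stand for such marker-gated, X-like cells. Gate minima were set after marker distributions were seen, and the members and gene lists were chosen with earlier results of these data known. Just above and just below the minimum lay 34 and 70 barcodes for the myeloid gate, 2 and 35 for the stromal gate and 2 and 52 for the tenocyte gate. No doublet caller was run, and barcodes passing several lineage gates were left out.

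Levels are UMIs of a class per 1000000 of its UMIs (CPM), with exact Poisson intervals, ratios with exact conditional binomial intervals, and shares with exact Clopper-Pearson intervals. Molecules of 1 library are not replicates, so no p-value is given. A count of 0 was given the limit of 3 counts. Genes needed 50 UMIs over both groups for a ratio to be counted, and classes 50 cells to be ranked. All 9 members were described, with other pathway genes named where past 4-fold. The 3 genes most like each member were named, except where a gene is not reported here. Levels were compared across classes within a gene, not between genes. Interval coverage was tested on data simulated with counting error alone. That simulation leaves out the uneven spread of UMIs over cells, so it cannot show coverage under such spread. Promoter windows came from RefSeq tables of GRCm38.p6.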

Additional observations from a re-analysis of the deposited data

How the results depend on the processing

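No paired analysis was possible because there was 1 library with no replicate, and no replicate could be left out. The number of members past 4-fold was 4 in myeloid cells under all 12 alternatives run. In stromal cells it was 2, and 3 with Ptgs2 when levels were means over cells, when the barcodes of each lineage with most markers of the other lineage were left out, and at a fold of 2. The number highest in a myeloid class was 5, and 4 at a minimum of 3000 UMIs, where Ptgs1 was highest in endothelial cells. Of the alternatives, leaving out barcodes of several subset gates and leaving out the 5% of barcodes with most UMIs were chosen after seeing the data. The log2 ratio of myeloid to stromal levels ranged from -2.03 to -1.73 for Ptgs2. The class with the highest level was the same in all 12 for Alox5ap, Alox5, Hpgds, Ltc4s, Ptgis and Ptgs2. The alternatives with a fold of 2 and with no minimum of gene UMIs cannot change the highest class. It was another fibroblast class in 5 for Ptges, and outside the fibroblasts in 9 for Lta4h, which lowers the number of members highest in a fibroblast class to 2. Where the counting interval of a log2 ratio excluded 0, its sign turned in 8 of 691 values under the alternatives, all for Alox5ap, Ltc4s or Lta4h. Where the interval included 0, it turned in 66 of 280 values, which also concern Hpgds, Alox5, Ptgs1, Ptges and Ptgis. With median-of-ratios size factors the turned ratios were Lta4h in myeloid over stromal cells (0.060) and Alox5ap in resident-like over lipid-associated macrophages (-0.22). With gate minima doubled, Alox5ap turned in Xcr1 Clec9a over Cd209a Flt3 dendritic cells (-0.11) and in adventitial over Smoc2 Cxcl14 Hsd11b1 fibroblasts (-0.47), and with barcodes of several lineages kept it turned in the latter pair (-0.051), as did Ltc4s in tenocytes over stromal cells (0.0093). Alox5ap in tenocytes over stromal cells turned with means over cells (-0.16), and Ltc4s there when barcodes with most markers of the other lineage were left out (0.54). The cause was not tested. Thinning to 1000 UMIs or not at all moved 53 of 54 shares beyond their intervals. Depth limits Alox5, whose share of resident-like macrophages rose from 25.7% at 5000 UMIs to 47.0% unthinned.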
